A study of Sus scrofa with 4 samples.

Results

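The proteasome genes described here were the features of a pig testis single-cell series whose symbol starts with PSMA, PSMB, PSMC, PSMD, PSME, PSMF or PSMG followed by a digit. There were 43 of them among 31908 features, 16508 of which carried a symbol. They comprised 5 of the 7 alpha ring genes, 5 of the 7 beta ring genes, 6 ATPases and 11 non-ATPase subunits of the regulatory particle, and 2 chaperones of that particle. They also comprised 5 activators or inhibitors, 2 assembly chaperones, the germ cell alpha subunit PSMA8, 3 immune beta subunits (PSMB8, PSMB9 and PSMB10) and the thymus subunit PSMB11. PSMC3IP, a partner of the meiotic recombinases, and PSME3IP1, which binds the activator PSME3, met the rule on symbols but are no subunits. Of 50 symbols looked for, 7 were not found (PSMA1, PSMA2, PSMB5, PSMB6, PSMD9, PSMG1 and PSMG2). PSMB11 had 3 unique molecular identifiers (UMIs, each standing for 1 captured RNA molecule) in the whole series and is not considered further, which left 42 measured genes. The other counts over all barcodes ran up to 89871 UMIs for PSMA7.

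The proteasome degrades proteins tagged with ubiquitin. Its core particle is a barrel of outer alpha and inner beta rings, with the cutting sites on the beta subunits PSMB5, PSMB6 and PSMB7. The regulatory particle caps the barrel: a ring of ATPases (PSMC genes) unfolds the substrate, and non-ATPase subunits (PSMD genes) bind ubiquitin and remove it. In cells exposed to interferon, PSMB8, PSMB9 and PSMB10 take the places of PSMB5, PSMB6 and PSMB7 and form the immunoproteasome, known for making peptides for class I antigen presentation. In mouse testis PSMA8, a close paralog of PSMA7, replaces it in spermatocytes, and the activator PSME4 (PA200) binds testis proteasomes and is linked to the loss of acetylated histones in spermatids.

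The series held 4 libraries of testis cells from pigs aged 7, 30, 60 and 90 days, 1 library per age, made with a droplet kit that counts the 3′ ends of transcripts. No treatment or mutation was given, and the labels state neither the breed nor how many animals went into a library. Age, animal and library therefore cannot be told apart, and the labels set no treated group against a control. The study asked how the supporting cells of the testis change as the animal matures. The files held 69602 barcodes (15896 to 19373 per library, 45717373 to 96133720 UMIs), whereas the labels speak of 86453 captured cells. Of these barcodes, 55798 passed a filter on depth (1000 UMIs or more), detected genes (500 or more) and mitochondrial UMIs (15% or less). Marker genes then placed 31750 cells in classes, which are called by their markers and were not taken from the authors. Neighbouring classes grade into each other, since 4218 gated cells lay within 10% of a gate threshold and another 4039 cells lay as near on the outside. Pairs of libraries shared 78 to 115 barcodes.

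Spermatogonia-gated cells were present at every age (201, 424, 90 and 290 cells at 7, 30, 60 and 90 days). The 90-day library alone held enough cells of the later stages, with 455 early spermatocytes, 199 late spermatocytes, 281 round spermatids and 276 protamine spermatids. Their summed own markers stood at 1807 CPM (UMIs of a class scaled to a common total, counts per 1e6) in early spermatocytes, 4717 in late spermatocytes, 5903 in round spermatids and 86268 in protamine spermatids. The next most frequent markers, as medians over cells, were protamine-stage ones in spermatogonia (1175 CPM), early spermatocytes (1547) and round spermatids (4963), and round-spermatid ones in late spermatocytes (1473) and protamine spermatids (824). Protamine-stage markers also reached 1239 CPM in Sertoli cells and 3068 CPM in T or NK cells at 90 days, against 0 to 16.4 CPM in 8 somatic classes at 7 days. The median UMI count per cell was 10698 in spermatogonia, 6645 in early spermatocytes, 4761 in late spermatocytes, 2222 in round spermatids and 1629 in protamine spermatids. Levels below are in CPM, with no scaling by transcript length because the kit tags transcript ends. With 1 library there is no test of stage. A gene is called higher or lower where it differs by at least 1.5 times and its exact 95% interval leaves out no change, and intervals cover counting error only.

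The alpha subunit pair PSMA7 and PSMA8 moved apart along the germ stages. PSMA7, the alpha subunit of the ordinary core particle (chromosome 17:61566373-61571516, Sscrofa11.1), had 378, 332.5, 198, 149 and 114 CPM in spermatogonia, early spermatocytes, late spermatocytes, round spermatids and protamine spermatids. PSMA8 (chromosome 6:110799065-110836937) had 51.7, 114, 219, 103 and 22.8 CPM in the same order. PSMA7 was thus highest in spermatogonia and lowest in protamine spermatids, while PSMA8 peaked in late spermatocytes and was lowest in protamine spermatids. Against spermatogonia, PSMA8 was 4.23-fold higher in late spermatocytes (log2 ratio 2.08, interval 1.82 to 2.35). PSMA7 was lower there (log2 ratio -0.94, interval -1.10 to -0.77), a call that trimmed-mean (TMM) scaling removed at -0.50. In early spermatocytes PSMA8 was already higher than in spermatogonia, with a log2 ratio of 1.15 (interval 0.88 to 1.42). From late spermatocytes to round spermatids it was lower by a log2 ratio of -1.09, and from round to protamine spermatids by -2.18. Its lower level in protamine spermatids than in spermatogonia (-1.18) lost its call at -0.56 with a looser gate and at -0.37 with TMM scaling.

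**Figure D1:**
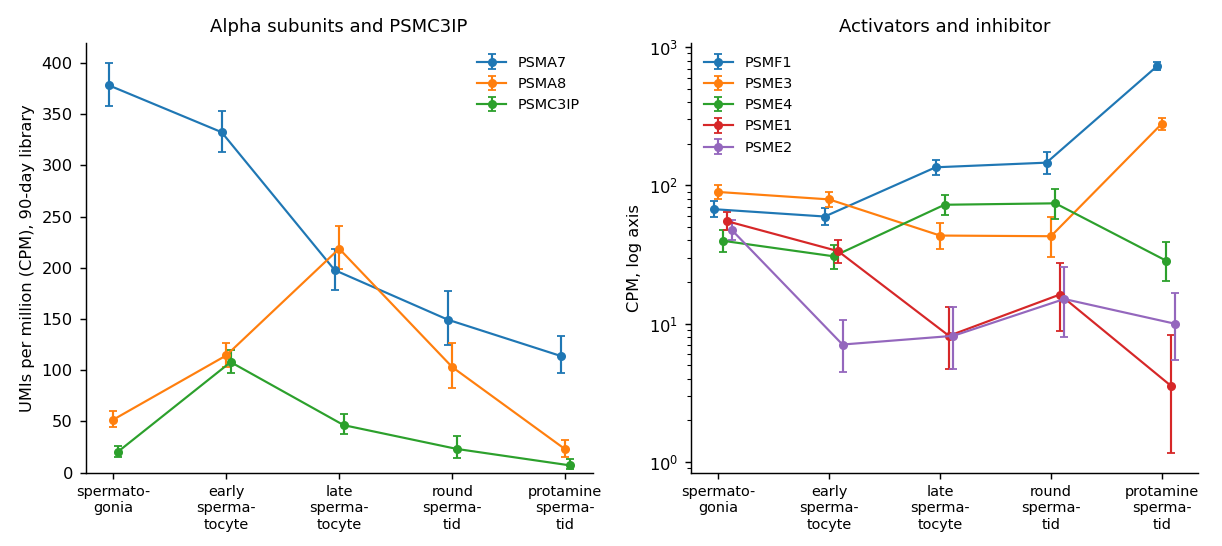
Levels in CPM in 5 germ stages of the 90-day library (x axis), with points for class sums and bars for exact 95% counting intervals; the left axis is linear and the right one logarithmic. PSMA8 peaks in late spermatocytes at 219 CPM, PSMC3IP in early spermatocytes at 108 CPM, and PSMF1 and PSME3 in protamine spermatids at 731 and 279 CPM.

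As a share of the UMIs of both genes, PSMA8 made up 12.01% (Clopper-Pearson interval 10.4 to 13.8) in spermatogonia, 25.6% (23.4 to 27.9) in early spermatocytes and 52.5% (49.0 to 56.0) in late spermatocytes. It made up 40.8% (34.2 to 47.7) in round spermatids and 16.7% (11.7 to 22.7) in protamine spermatids. Of these 5 intervals, those of protamine spermatids and spermatogonia overlapped, and the others kept apart. How reads that match both paralogs were counted is not given in the sources used here, nor whether counting used the strand, which matters for the 10 members that overlap another RefSeq gene (PSMA3, PSMA7, PSMC1, PSMC3IP, PSMC5, PSMD1, PSMD6, PSMD10, PSMD14 and PSME1). Cells with at least 1 PSMA8 UMI were 38.3% of spermatogonia, 49.7% of early spermatocytes, 64.3% of late spermatocytes, 26.0% of round spermatids and 10.9% of protamine spermatids. Thinned to 2000 UMIs per cell the shares were 10.3%, 17.2%, 35.3%, 20.6% and 4.92% in the same order, so late spermatocytes stayed the highest.

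The background of PSMA8 in cells that should lack it differed by age. At 7 to 60 days the somatic classes held 0 to 5.93 CPM. At 90 days they held 7.78 CPM in Sertoli cells, 12.8 in Leydig cells, 19.2 in endothelial cells, 23.9 in stromal cells, 28.5 in contractile cells and 47.1 in T or NK cells. Between 4.81 and 9.20% of the cells of these somatic classes had a PSMA8 UMI at 90 days, as against 0.469% of 7-day Sertoli cells. The protamine-spermatid level of 22.8 CPM lies inside that somatic range, while the 114, 219 and 103 CPM of the 3 stages before it lie above the range. The part of background in the protamine-spermatid level was not tested. Spermatogonia had 64.5, 67.0, 65.1 and 51.7 CPM at 7, 30, 60 and 90 days. PSMA8 there stood well above the somatic classes at the 3 younger ages. At 90 days the 51.7 CPM lay just above the 47.1 CPM of T or NK cells. In thinned cells of that age, 10.3% of spermatogonia had a PSMA8 UMI (38.3% before thinning), against 1.76 to 8.20% in the somatic classes. The base of the stage ratios of PSMA8 thus lay close to the somatic background, whose part in it was not tested. The PSMA8 share of the pair in spermatogonia was 14.01%, 15.8%, 19.0% and 12.01% from 7 to 90 days.

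Late spermatocytes had a higher summed level of the ATPase ring (1319.9 CPM) than spermatogonia (798 CPM). Of all 42 measured genes, 15 were higher and 12 lower, beside 23.1% of all 14840 features higher and 40.0% lower. Of 6 ATPases, 5 were higher and 1 lower; of 11 non-ATPase subunits, 4 were higher and 2 lower. In the rings none of 5 measured alpha genes was higher and 2 were lower, and none of 5 beta genes was called. The other 2 alpha ring genes, PSMA1 and PSMA2, carried no symbol and were not counted. Features assigned to them (see the last section) had 195 and 229 CPM in late spermatocytes, against 103 and 102 CPM in spermatogonia. The members' median log2 ratio was 0.05, against -0.54 over all features. TMM scaling shifted every ratio by 0.44 and made the split 21 higher and 8 lower.

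Within these groups single subunits went opposite ways. PSMC4, an ATPase, had 223 CPM in late spermatocytes and 87.7 CPM in spermatogonia (log2 ratio 1.35). PSMC6, another ATPase of the same ring, had 48.4 CPM in late spermatocytes and 118.6 CPM in spermatogonia (-1.29). PSMC6 was thereby the 1 ATPase that fell while its 5 partners were called higher. Among non-ATPase subunits PSMD2, a scaffold of the base that docks ubiquitin receptors, had 645 CPM in late spermatocytes against 231 CPM in spermatogonia (log2 ratio 1.48, interval 1.35 to 1.61). PSMD1, the other large scaffold of the base, had 109.6 CPM in late spermatocytes against 269.6 CPM in spermatogonia (-1.30). Both genes of this scaffold pair were called, in opposite directions. In the outer ring PSMA4 was lower (-1.31), and PSMA6 missed the call at 0.53. Among beta genes PSMB2 (0.40) and PSMB1 (-0.56), the highest and lowest ratios, were not called either.

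The chaperones were as divided. PSMG3, which helps to assemble the alpha ring, was higher in late spermatocytes (86.2 CPM) than in spermatogonia (36.7 CPM), with a log2 ratio of 1.23. PSMG4, its binding partner, was lower, at 154.5 CPM in late spermatocytes and 365 CPM in spermatogonia (-1.24). PSMD5 (-1.15) and PSMD10 (-1.24), chaperones of the regulatory particle, were both lower. PSMD10 had first been higher in early spermatocytes (51.5 CPM) than in spermatogonia (19.3 CPM), at a log2 ratio of 1.42.

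The step from spermatogonia to early spermatocytes touched few members. Only 3 of 42 were higher and 3 lower, beside 17.5% of all features higher and 18.7% lower, and the members' median of 0.01 was close to the 0.02 of all features. The higher genes were PSMA8, PSMD10 and PSMC3IP. PSMC3IP had 108 CPM in early spermatocytes and 20.2 CPM in spermatogonia, a 5.35-fold difference (log2 ratio 2.42). Past that stage PSMC3IP stood at 46.4 CPM in late spermatocytes, 23.2 in round spermatids and 7.12 in protamine spermatids, the last inside the range of the somatic classes. The 20.2 CPM of spermatogonia lay inside that range too, and round spermatids just above it. T or NK cells at 90 days had 22.2 CPM, on 8 UMIs. The part of background in these levels was not tested. The lower genes were PSME2 (-2.76), PSME1 (-0.72) and PSMA6 (-0.62). Late against early spermatocytes gave 14 higher and 12 lower, beside 22.5% and 36.8% of all features, and 18 and 8 with TMM scaling.

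**Figure D2:**
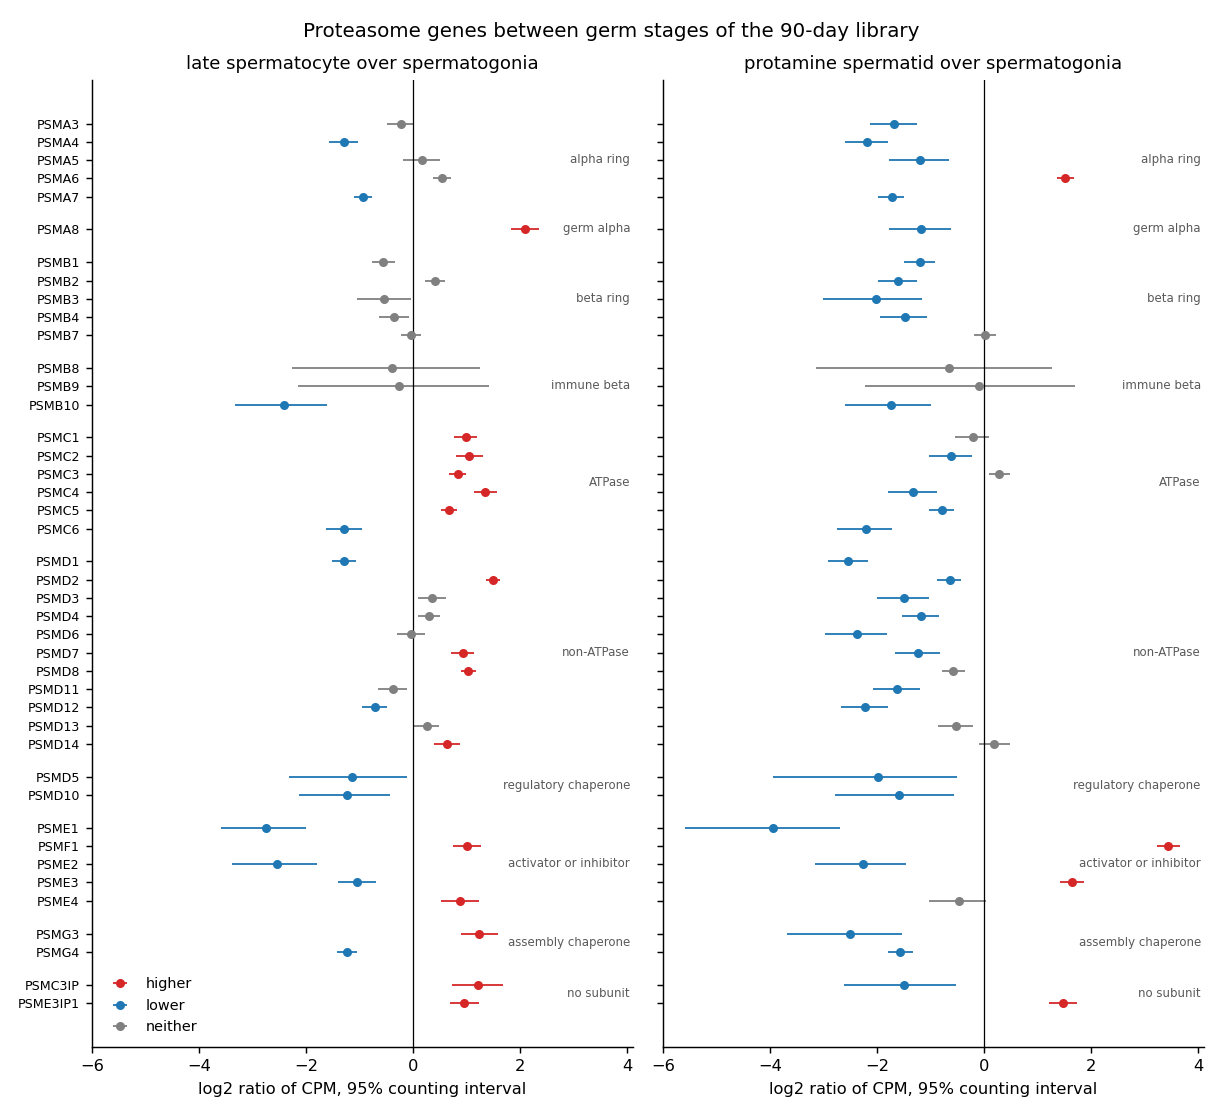
Log2 ratios of CPM (x axis) for each measured gene, grouped by role, in late spermatocytes (left) and protamine spermatids (right) over spermatogonia of the 90-day library; points are ratios, bars exact 95% counting intervals, and colours the calls. Late spermatocytes show 15 genes higher and 12 lower, protamine spermatids 4 higher and 29 lower, and TMM scaling would move all points right by 0.44 and 0.81.

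Round spermatids held less proteasome RNA than late spermatocytes in most roles. Of 41 measured members none was higher and 13 were lower, beside 32.0% of all features higher and 20.1% lower, and their median was -0.29 against 0.24. The lower genes included 3 of 6 ATPases and 6 of 11 non-ATPase subunits but none of 5 alpha ring genes. PSMC5 (-0.91), PSMD8 (-1.04), PSMB2 (-0.92) and PSMG3 (-2.31) were the lowest of their roles. Against spermatogonia, 9 members were higher and 15 lower in round spermatids, beside 29.7% and 28.4% of all features. PSMA6, an alpha ring subunit, was higher there (325.5 CPM in round spermatids and 196 CPM in spermatogonia, log2 ratio 0.73), as were PSMC4 (0.93) and PSMA8 (0.997), while PSMA7 (-1.34) and PSMD1 (-1.84) were lower.

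In protamine spermatids 29 of 42 members were lower and 4 higher than in spermatogonia, beside 47.7% of all features lower and 22.2% higher. The members' median log2 ratio was -1.28 and that of all features -0.93. Of the 27 core subunit genes (alpha and beta rings, ATPases and non-ATPases), 20 were lower and 1 higher. Their summed level was 4039, 4041, 4921, 3505 and 2468 CPM from spermatogonia to protamine spermatids. A few abundant transcripts fill this class, since protamine markers alone took 86268 CPM. TMM scaling, which shifts every ratio by 0.81, left 17 lower and 8 higher.

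The 4 genes that stood higher on plain CPM were PSMF1, PSME3, PSMA6 and PSME3IP1. PSMF1, an inhibitor of the core particle (chromosome 17:34118324-34164723), had 67.2, 59.5, 135, 146 and 731 CPM along the stages. It had the most UMIs of the members in protamine spermatids and was 10.9-fold higher there than in spermatogonia (log2 ratio 3.44, interval 3.23 to 3.66). PSME3, the nuclear activator PA28-gamma, had 89.6, 79.1, 43.3, 42.9 and 279 CPM along the stages. It was lower in late spermatocytes than in spermatogonia (-1.05) and higher in protamine spermatids than in spermatogonia (1.64, interval 1.42 to 1.86). Between protamine and round spermatids PSME3 differed 6.51-fold (2.70) and PSMF1 5.01-fold (2.33). PSMA6 had 196, 128, 284, 325.5 and 563 CPM along the stages and was 2.87-fold higher in protamine spermatids than in spermatogonia (log2 ratio 1.52, interval 1.37 to 1.67). On plain CPM, PSMA6 was therefore the 1 core subunit gene that was higher in protamine spermatids, in a ring whose 4 other measured members were lower.

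PSMB7, which carries the trypsin-like site, kept its CPM, with 196.5 CPM in spermatogonia, 156 in early spermatocytes, 190.2 in late spermatocytes, 159.9 in round spermatids and 199 in protamine spermatids. PSMC3 (0.28) and PSMD14, the enzyme that removes ubiquitin chains (0.19), were likewise not called between protamine spermatids and spermatogonia. At the other end stood PSMD1 (-2.54), PSMC6 (-2.21), PSMA4 (-2.19), PSMB3 (-2.03), PSMG3 (-2.52) and PSMG4 (-1.57). Against round spermatids, 24 of 41 members were lower and 4 higher in protamine spermatids, beside 42.7% and 13.5% of all features. This split turned to 5 lower and 8 higher with TMM scaling, which shifts the ratios by 0.75, so no direction is given for the whole family at that step.

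The activators changed places between stages. PSME1 and PSME2, which form the interferon-inducible PA28 cap, both had 8.16 CPM in late spermatocytes, against 55.0 and 47.7 CPM in spermatogonia (log2 ratios -2.75 for PSME1 and -2.55 for PSME2), although PSME2 lost its call at -1.01 when cells were thinned to 2000 UMIs. PSME4 had 39.7, 30.7, 72.4, 74.1 and 28.5 CPM along the stages. It was higher in late spermatocytes (0.87) and round spermatids (0.90) than in spermatogonia. The call in late spermatocytes was lost at 0.72 with thinned cells, whose interval then took in no change. PSME4 made up 17.1%, 20.4%, 54.8% (interval 48.5 to 61.0), 50% and 8.87% of the UMIs of the 4 activator genes along the stages.

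Immune beta subunits were low in germ cells. PSMB8 had 2.14 to 3.48 CPM and PSMB9 2.55 to 8.11 CPM across the 5 stages, and neither was called between late spermatocytes or protamine spermatids and spermatogonia. PSMB10 had 38.2 CPM in spermatogonia, 40.8 in early spermatocytes, 7.14 in late spermatocytes, 8.11 in round spermatids and 11.4 in protamine spermatids. It was lower in late spermatocytes than in spermatogonia by a log2 ratio of -2.42.

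Genes outside the complex were read from 3 lists drawn up together with the members. Of 10 measured proteasome-associated factors, 4 were higher and 4 lower in late spermatocytes than in spermatogonia, beside 23.1% and 40.0% of all features, from PITHD1 (2.51) to the deubiquitinase USP14 (-1.87). Of 14 ubiquitin and shuttle genes 5 were higher and 7 lower, with NPLOC4, a cofactor of the segregase VCP, the highest (1.83). The shuttle gene UBQLN2 had 0 UMIs in late spermatocytes and 5.50 CPM in spermatogonia. Of 8 class I presentation genes none was higher and 4 were lower, from PDIA3 (0.53, not called) to the peptidase ERAP1 (-3.17). In protamine spermatids the counts were 2 higher and 6 lower, 1 and 9, and 0 and 4 for the 3 lists, beside 22.2% and 47.7% of all features. Shares as near to these as 4 of 10 or 4 of 8 lower are no result about a list.

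Between classes, each library served as a replicate block, and UMIs summed per class and library were tested with edgeR's quasi-likelihood method across 15857 features (Benjamini-Hochberg adjusted, threshold 0.05). The p-values rest on the spread over 4 libraries of different ages, pooled over all classes in the fit and in part over features. They do not measure the spread of 1 class difference alone. Leydig cells, which make testosterone, had the most members above the level in Sertoli cells, the nurse cells of the tubule. Of 42 members 23 were higher and 1 lower, beside 17.0% of all features higher and 21.3% lower, and the members' median log2 fold change was 0.64 against -0.02 over all features. The count of higher members rested on the younger libraries: it was 13 without the 7-day library, 8 without the 30-day library, 21 without the 60-day library and 28 without the 90-day library. Genes of both rings, the ATPases and the non-ATPases were among them.

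PSMB3, a structural beta subunit, averaged 94.5 CPM in Leydig cells and 29.6 CPM in Sertoli cells (edgeR log2 fold change 1.80 ± 0.26 SE, adjusted p = 4.67e-06, higher in 4 of 4 libraries). PSMA7 averaged 486 CPM in Leydig cells and 257 CPM in Sertoli cells (edgeR 0.97 ± 0.24, adjusted p = 0.00237, higher in 4 of 4 libraries), a call lost without the 30-day library at 0.73. PSMA5 (1.05 ± 0.20, edgeR adjusted p = 0.000134), PSMC5 (0.82 ± 0.16, 0.000234) and PSME4 (1.05 ± 0.19, 0.000115) were higher in 4 of 4 libraries as well. So were PSMB8 (1.36 ± 0.31, edgeR adjusted p = 0.00111), PSMB9 (1.35 ± 0.44, 0.0162) and PSME2 (1.06 ± 0.29, 0.00578). PSMB8 and PSMB9 averaged only 15.9 and 17.4 CPM in Leydig cells, and these averages lean on the 48 cells at 60 days. At 7, 30 and 90 days PSMB8 had 8.34, 11.9 and 7.90 CPM there and PSMB9 11.2, 8.78 and 7.90 CPM. Sertoli cells at 7 days had 7.29 CPM of PSMB8 and 8.87 CPM of PSMB9. PSMB10 (-0.77) and PSME1 (0.41) were not called. PSMD4, the ubiquitin receptor also known as Rpn10, was the 1 member lower in Leydig cells, at 119 CPM against 234.7 CPM in Sertoli cells (edgeR -0.86 ± 0.18, adjusted p = 0.000545, lower in 4 of 4 libraries). PSMD4 was also lower in endothelial cells (-0.81 ± 0.18, edgeR adjusted p = 0.000598, lower in 4 of 4 libraries). The same held in macrophages (-0.53, edgeR adjusted p = 0.0203) and spermatogonia (-1.06, 1.38e-05), so it was lower than in Sertoli cells in every contrast. PSMC5 was higher in every contrast, with 0.54 in endothelial cells, 0.62 in macrophages and 0.59 in spermatogonia. PSMB3 was higher in endothelial cells (0.93) and macrophages (0.98) too, and not called in spermatogonia (0.38).

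Spermatogonia differed from Sertoli cells mainly in single genes, and the direction of the family depended on the scaling. With edgeR's TMM scaling 8 members were higher and 12 lower, beside 30.3% and 32.1% of all features. With DESeq2's size factors 21 were higher and 7 lower. Median log2 fold changes of the members were -0.09 with TMM, 0.26 with DESeq2 and 0.45 on plain CPM, and those of all features moved likewise, to -0.04, 0.33 and 0.40. Without the 90-day library 14 were higher, and without the 30-day library 4 were lower. PSMA8 averaged 62.1 CPM in spermatogonia and 2.89 CPM in Sertoli cells (edgeR log2 fold change 4.91 ± 0.51, adjusted p = 1.29e-08, higher in 4 of 4 libraries). It was the largest difference of any member in that contrast.

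PSMD14 averaged 183 CPM in spermatogonia and 45.4 CPM in Sertoli cells (edgeR 1.46 ± 0.25, adjusted p = 2.01e-05), PSMG4 306 and 107 CPM (1.001 ± 0.16, 7.5e-06), and PSME3 79.9 and 28.9 CPM (0.93 ± 0.17, 4.84e-05). These 3 were higher in 4 of 4 libraries. PSMD10, a chaperone also known as gankyrin, was lower in 4 of 4 libraries (15.5 CPM in spermatogonia and 25.2 CPM in Sertoli cells, edgeR -1.22 ± 0.23, adjusted p = 4.68e-05). PSMA7 (0.01) and PSMF1 (-0.01) lay near no change in edgeR, and PSMF1 came out at 0.34, past the threshold, in DESeq2. PSME1 and PSME2 were lower in spermatogonia (-0.75 and -0.85), but both calls were lost without the 7-, 30- or 60-day library and in DESeq2.

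In macrophages and endothelial cells the members with the largest fold changes against Sertoli cells were the immune subunits PSMB8 and PSMB9. In macrophages PSMB8 averaged 329 CPM against 4.95 CPM in Sertoli cells (edgeR log2 fold change 6.29 ± 0.30, adjusted p = 9.38e-15), and PSMB9 222 against 4.84 CPM (5.76 ± 0.41, 1.3e-11). PSMB10 averaged 112 CPM in macrophages and 26.4 CPM in Sertoli cells (edgeR 2.30 ± 0.35, adjusted p = 5.52e-06). The PA28 genes went with them, PSME1 at 2.31 ± 0.31 (edgeR adjusted p = 1.13e-06) and PSME2 at 2.17 ± 0.30 (1.17e-06). All 5 were higher in 4 of 4 libraries, and they lie on 2 chromosomes: PSMB8 (7:25058456-25061666) and PSMB9 (7:25072133-25077508) flank the peptide transporter gene TAP1 on chromosome 7, PSME2 and PSME1 are neighbours at 7:75154570-75157871 and 7:75161830-75164531, and PSMB10 is at 6:28544910-28547609. No call on these 5 genes in macrophages was lost under any of the alternatives run.

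Endothelial cells showed the same 5 genes higher than Sertoli cells in 4 of 4 libraries. The edgeR log2 fold changes were 5.62 ± 0.29 for PSMB8 (adjusted p = 5.98e-14), 5.42 ± 0.40 for PSMB9 (3e-11), 1.94 ± 0.34 for PSMB10 (4.05e-05), 1.49 ± 0.30 for PSME1 (0.000277) and 1.77 ± 0.29 for PSME2 (1.71e-05). In macrophages 10 members were higher and 7 lower, beside 19.0% and 24.7% of all features, and in endothelial cells 7 and 7, beside 19.1% and 22.4%. The constitutive subunits that were lower included PSMD2 in both classes (macrophages -1.04 ± 0.18, edgeR adjusted p = 3.86e-05; endothelial cells -1.26 ± 0.18, 2.38e-06; lower in 4 of 4 libraries each). PSMD2 was lower in spermatogonia as well (-0.98 ± 0.18, edgeR adjusted p = 3.22e-05), though higher on plain CPM in 1 of 4 libraries. Without the 30-day library 5 members were higher in macrophages and 4 lower in endothelial cells, and 4 and 3 were lower in macrophages without the 60- and the 90-day library. With DESeq2 17 were higher and 4 lower in macrophages, and 12 higher and 6 lower in endothelial cells.

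**Figure D3:**
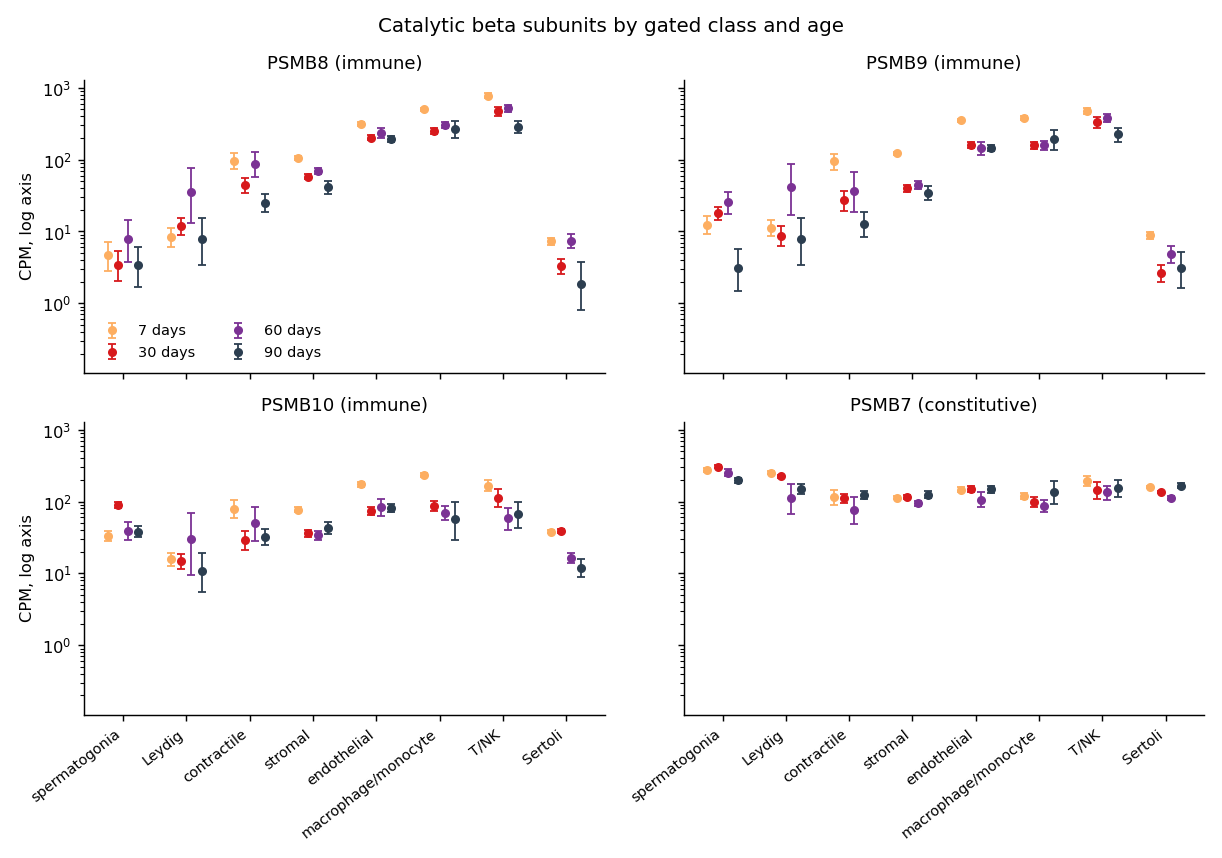
Levels of PSMB8, PSMB9, PSMB10 and PSMB7 in CPM (log axis) by gated class (x axis) and age (colours), with points for class sums of 1 library each and bars for exact 95% counting intervals. The immune subunits PSMB8 and PSMB9 span from under 10 CPM in Sertoli cells to 778 and 475 CPM in 7-day T or NK cells, while PSMB7 stays between 77.4 and 304 CPM.

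PSMB8 placed 5 classes in the same order at every age. T or NK cells had 778, 472, 521 and 288 CPM at 7, 30, 60 and 90 days, macrophages 499, 253, 303 and 263, endothelial cells 311, 201.5, 234 and 193, and stromal cells 104, 58.1, 70.0 and 41.2. Sertoli cells had 7.29, 3.28, 7.35 and 1.88 CPM. At 90 days the counting intervals of T or NK cells and macrophages overlapped. As a share of the UMIs of PSMB7 to PSMB10, the immune subunits made up 90.3%, 83.4%, 85.9% and 79.0% in macrophages from 7 to 90 days, 88.1%, 86.5%, 87.7% and 78.9% in T or NK cells, and 85.1%, 74.5%, 81.2% and 74.1% in endothelial cells. In Sertoli cells the share was 25.5%, 24.8%, 20.4% and 9.29%, in spermatogonia 15.4%, 26.9%, 22.5% and 18.5%, and in Leydig cells 12.3%, 13.7%, 48.6% and 15.3%, where the third value rests on 37 UMIs of 48 cells. PSMB5 and PSMB6 were not among the named features, so these shares overstate the immune part.

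PSMB10 and the subunit it replaces, PSMB7, were both measured. PSMB10 made up 66.3%, 46.5%, 44.6% and 29.3% of that pair in macrophages from 7 to 90 days, the last with an interval of 16.1 to 45.5. In Sertoli cells it made up 19.4%, 22.3%, 12.8% and 6.76%. In spermatogonia it made up 10.7%, 22.9%, 13.6% and 16.3%, below macrophages at every age. PSMB10 had the most UMIs of the 3 immune subunits in both of these classes, with 33.1, 90.2, 39.5 and 38.2 CPM in spermatogonia and 37.99, 39.0, 16.4 and 12.02 CPM in Sertoli cells. PSMB8 in spermatogonia stayed between 3.36 and 7.75 CPM.

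The age comparison asks how the same class differed between the 90-day and the 7-day library, each a single library, so nothing here is tested. Core subunit RNA was lower at 90 days in Leydig cells and, by less, in T or NK cells, macrophages, spermatogonia, endothelial cells and contractile cells. The summed level of the 27 core genes in Leydig cells was 5851, 5112, 3062 and 3683 CPM at 7, 30, 60 and 90 days, with 48 cells at 60 days. It was 5010, 4854, 3904 and 4039 CPM in spermatogonia and 3559, 3348, 2892 and 3660.4 CPM in Sertoli cells. Leydig cells thus stood above spermatogonia at 7 and 30 days and below them at 60 and 90 days. T or NK cells had 4691, 4064, 3435 and 3484 CPM from 7 to 90 days, and macrophages 3721, 2574, 2352 and 2852 CPM. Of the 27 core genes 10 were lower and 1 higher at 90 than at 7 days in each of these 2 classes. Of all features 8.26% were lower and 26.0% higher in T or NK cells, and 5.94% and 14.4% in macrophages. Contractile cells stayed between 2506 and 3210 CPM, stromal cells between 2450.4 and 2918 CPM and endothelial cells between 2926 and 3638 CPM.

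**Figure D4:**
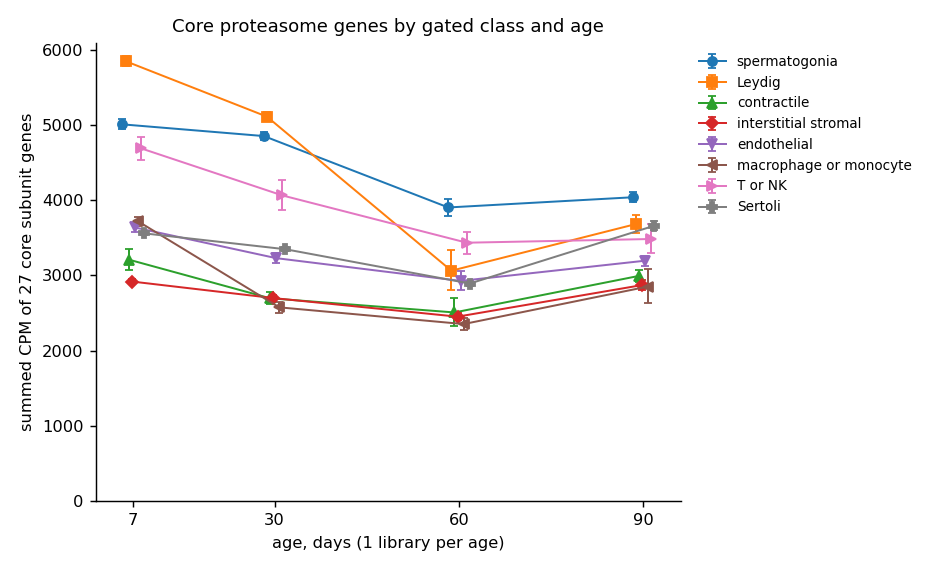
Summed CPM of 27 core subunit genes (y axis from 0) against age in days (x axis, 1 library per age) for 8 gated classes, with points for class sums and bars for exact 95% counting intervals. Leydig cells lie highest at 7 days (5851 CPM) and stand at 3683 CPM at 90 days, below the 4039 CPM of spermatogonia.

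In Leydig cells 15 of 42 members were lower at 90 than at 7 days and 5 higher, beside 9.34% of all features lower and 32.7% higher. The members' median was -0.40 against 0.41 over all features. With TMM scaling, which shifts the ratios by -0.41, 29 were lower and 2 higher. The lower genes included all 5 beta ring genes, 4 of 5 alpha ring genes and 13 of 27 core genes, and no core gene was higher. PSMB3 had 176, 116.5, 41.5 and 43.5 CPM in Leydig cells from 7 to 90 days (log2 ratio of 90 over 7 days -2.02), and PSMA7 had 778, 606, 273 and 288 CPM (-1.43). Both were high in the 2 younger libraries and low in the 2 older ones.

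PSMB3 was lower at 90 days in all 8 classes compared and PSMA7 in the 7 somatic ones. The PSMB3 log2 ratios were -1.15 in Sertoli cells, -1.47 in stromal cells, -1.32 in contractile cells, -1.01 in endothelial cells, -2.06 in T or NK cells and -1.12 in spermatogonia. In macrophages the ratio was -3.29, on 9.38 CPM in 74 cells at 90 days against 91.7 CPM at 7 days, with a wide interval of -6.34 to -1.43. PSMA7 ratios were -0.93 in Sertoli cells, -0.66 in stromal cells, -0.71 in contractile and in endothelial cells, -0.82 in T or NK cells and -1.45 in macrophages. In spermatogonia PSMA7 had 396, 356, 277 and 378 CPM from 7 to 90 days and was not called (-0.07). In contrast, 10 members (PSMC3 to PSMC6, PSMD3, PSMD7, PSMD8, PSMD10, PSMD11 and PSMG4) were called in no class.

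The inhibitor PSMF1 went the other way. It was higher at 90 days in 7 of 8 classes, with ratios of 1.61 in Leydig cells, 1.56 in stromal cells, 1.14 in T or NK cells, 1.13 in contractile cells, 0.93 in macrophages, 0.69 in Sertoli cells and 0.64 in spermatogonia. Leydig cells had 27.5, 32.4, 59.3 and 84.0 CPM from 7 to 90 days and stromal cells 27.4, 23.4, 32.4 and 80.9 CPM. PSMF1 had 731 CPM in protamine spermatids, and protamine markers stood at 1239 to 3068 CPM in the 90-day somatic classes. With 10% of the library's mean profile subtracted as free RNA, the ratio was 1.65 in Leydig cells, 1.60 in stromal cells and 0.60 in Sertoli cells. In spermatogonia it lost its call at 0.56. That profile averages all barcodes of a library and is not the spermatid one. These ratios therefore cannot show the part of spermatid RNA in PSMF1, which was not tested. TMM scaling removed the call in Sertoli cells (0.40) and macrophages (0.62). PSMA8 was also called higher in the 7 somatic classes at 90 days, at levels of 7.78 to 47.1 CPM that are read as background; the part of free germ cell RNA in it was not tested.

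Immune genes and the PA28 gene PSME2 were lower at 90 days in most classes. PSMB9 was lower in 7 of 8 classes, and PSMB8 and PSMB10 in 6 each. PSME2 was lower in 7 and higher in spermatogonia (0.60). The other PA28 gene, PSME1, was lower in 4 classes, not called in 3 and higher in spermatogonia (1.66). In macrophages the log2 ratios were -0.93 for PSMB8, -0.98 for PSMB9, -2.08 for PSMB10 and -1.78 for PSME2, whereas PSME1 was not called (0.11). Macrophage PSMB10 had 237, 85.7, 69.6 and 56.3 CPM from 7 to 90 days and PSME2 468, 142.5, 125 and 136 CPM. Most of that difference lay between 7 and 30 days, where 15 of 42 members were lower and 1 higher, beside 7.32% of all features lower and 15.2% higher. In Sertoli cells PSMB8 (-1.95), PSMB9 (-1.53) and PSMB10 (-1.66) were lower, and so were 6 of 11 class I presentation genes (16.4% of all features), down to B2M, the light chain of class I molecules, at -2.77. The same list had 6 of 11 lower in macrophages (5.94% of all features). In Leydig cells 4 of 9 were higher and none lower, beside 32.7% of all features higher and 9.34% lower.

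**Figure D5:**
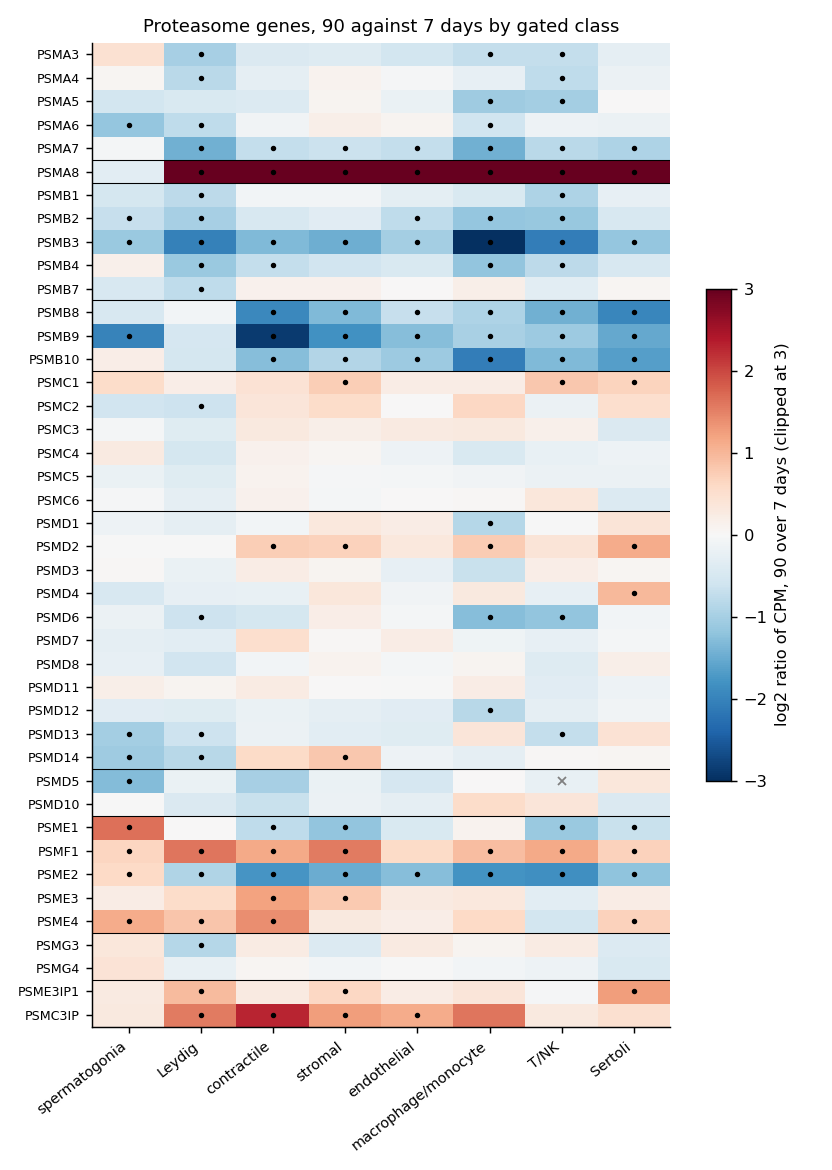
Log2 ratio of CPM at 90 over 7 days (colour, clipped at 3) for 42 proteasome genes (rows, by role) in 8 gated classes (columns), with dots for genes called higher or lower and a cross for 1 gene not measured. PSMB3 is blue in all 8 classes, PSME2 in 7, and PSMF1 is red in all 8; TMM scaling would shift the somatic columns by -0.22 to -0.41.

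In the remaining classes the counts of higher and lower members at 90 days were 7 and 7 in Sertoli cells, beside 31.8% and 16.4% of all features, and 8 and 7 in stromal cells, beside 37.0% and 8.83%. They were 6 and 8 in contractile cells (25.6% and 9.38%), 2 and 7 in endothelial cells (28.0% and 8.55%), 3 and 14 in macrophages (14.4% and 5.94%) and 3 and 15 of 41 in T or NK cells (26.0% and 8.26%). TMM scaling turned these to 4 and 14 in Sertoli cells, 3 and 14 in stromal cells, 5 and 12 in contractile cells, 2 and 12 in endothelial cells, 1 and 16 in macrophages and 2 and 18 in T or NK cells. The members' median log2 ratios in these 6 classes were -0.28 to 0.04, against all-feature medians of 0.23 to 0.42. PSMD2 was one of the 3 core genes higher in Sertoli cells, with 229, 285.5, 257 and 499 CPM from 7 to 90 days (log2 ratio 1.12), beside PSMD4 (0.96) and PSMC1 (0.67). It was called higher in 4 of 8 classes, the others being stromal cells (0.70), contractile cells (0.73) and macrophages (0.76). With TMM scaling it kept its call in Sertoli cells only (0.83), and PSMC1 lost its own there (0.38).

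Neighbouring ages were compared in the same way. From 7 to 30 days nearly every called member was lower at 30 days. Higher and lower members numbered 0 and 6 in Sertoli cells (13.9% and 9.41% of all features), 0 and 1 in Leydig cells (16.0% and 6.49%), 0 and 6 in stromal cells (10.2% and 6.16%) and 0 and 8 of 40 in contractile cells (9.26% and 12.3%). They numbered 1 and 6 of 41 in endothelial cells (8.42% and 5.64%), 0 and 3 of 40 in T or NK cells (6.32% and 4.09%) and 1 and 0 in spermatogonia (8.24% and 3.12%). The 8 lower genes of contractile cells included PSMB8 (-1.13), PSMB9 (-1.79), PSMB10 (-1.43), PSME1 (-0.60) and PSME2 (-1.03), which were also among the 15 lower in macrophages.

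The step from 30 to 60 days touched the fewest members. Higher and lower at 60 days were 4 and 2 in Sertoli cells (17.0% and 6.61% of all features), 1 and 1 in stromal cells (18.5% and 4.93%), 1 and 2 of 40 in contractile cells (8.67% and 2.92%) and 0 and 1 of 41 in endothelial cells (9.20% and 4.26%). In macrophages they were 0 and 1 of 41 (9.94% and 7.42%), in T or NK cells 0 and 3 of 39 (8.43% and 4.35%) and in spermatogonia 0 and 5 (9.55% and 4.19%). The 5 lower genes of spermatogonia were PSMB10 (-1.19), PSMC4 (-0.66), PSMD13 (-0.62), PSMG3 (-0.60) and PSMD10 (-1.46). With TMM scaling the stromal split was 0 and 4.

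From 60 to 90 days more members were higher than lower in each somatic class compared, except in contractile and T or NK cells with TMM scaling. All features also had more higher than lower in each of these classes on plain CPM. The direction alone is therefore no result about the members. The counts at 90 days were 7 and 2 in Sertoli cells (23.6% and 17.4% of all features), 8 and 2 in stromal cells (22.4% and 8.97%), 4 and 2 in contractile cells (11.7% and 6.39%) and 2 and 1 in endothelial cells (12.6% and 6.12%). They were 8 and 1 of 40 in macrophages (10.3% and 5.18%) and 5 and 4 of 41 in T or NK cells (17.2% and 6.32%). The TMM split was 2 and 4 in contractile cells and 2 and 5 in T or NK cells. PSMD2 and PSMF1 were higher in Sertoli cells (0.96 and 0.86), stromal cells (0.80 and 1.32) and macrophages (1.003 and 0.90), and PSMB3 was lower in all 3 (-0.80, -0.93 and -2.44).

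In spermatogonia at 90 against 7 days 4 members were higher and 7 lower, beside 18.4% and 20.6% of all features. All 4 higher genes were activators or the inhibitor: PSME1 (1.66), PSME4 (1.11), PSMF1 (0.64) and PSME2 (0.60). PSME1 had 17.5, 22.1, 32.5 and 55.0 CPM from 7 to 90 days and PSME4 18.4, 26.6, 28.7 and 39.7 CPM, each highest in the oldest library. PSMA6 was lower (196 CPM at 90 days against 437 CPM at 7 days, -1.16), as were PSMD14 (-1.07), PSMD5 (-1.29) and PSMB9 (-2.01). These counts rest on the deepest cells: without cells above the 95th percentile of depth, which leaves 215 spermatogonia at 90 days and 79 at 7 days, 11 were higher and 13 lower. Between 90 and 60 days 6 were higher and 5 lower, beside 10.5% and 21.6% of all features, and 14 and 3 with TMM scaling.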

How the data were processed

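The deposited files of each library hold raw UMI counts per feature and barcode, made with Cell Ranger 5.0.1 per the file headers. The submitters' processing notes also name bcl2fastq, Scanpy 1.7.1 and the build Sscrofa11.1; the annotation is not given in the sources used here. The labels state no filtering of cells.

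The 43 genes were found by symbol. The members, roles, markers and lists were chosen with earlier results of these data known. Cells with 1000 UMIs or more, 500 genes or more and 15% mitochondrial UMIs or less were scored on each class's markers. A marker's depth-scaled UMIs were divided by their 99th percentile over cells and capped at 1, and the class score was the mean over markers. A cell was gated where its best score was at least 0.2 and at least 1.5 times the second, with at least 3 markers and 5 marker UMIs; protamine spermatids needed 2% of UMIs from their markers. These thresholds were set after the data had been seen. No doublet caller was run. The score ratio leaves out cells whose 2 best scores lie within 1.5 times of each other, but it keeps others with the markers of 2 classes. Contractile cells at 30 days had medians of 11818 CPM of their own markers and 10205 CPM of stromal ones.

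Raw counts were summed per class and library. Ratios were compared in classes of at least 50 cells, for genes with at least 10 UMIs in both sums together, with exact Poisson, Clopper-Pearson and conditional binomial intervals at 95%. Class contrasts were fitted with edgeR 4.0.16 (R 4.3.3) on 28 sums of 168524 to 39665530 UMIs, of at least 30 cells each, with TMM scaling and the library as replicate block, since classes of 1 library come from the same preparation. DESeq2 1.42.0 was an alternative. Shares of all features printed beside counts hold for the main scaling, plain CPM for ratios and edgeR for class contrasts. None is given for the TMM splits of ratios or for the DESeq2 splits. An SE is the log2 fold change divided by the root of its F statistic. Both steps were tested on simulated data. The intervals covered the set value for 95 to 97.5% of genes. For macrophages against Sertoli cells, edgeR recovered 6% and 8% of genes set at 0.5- and 2-fold. It recovered 82% and 88% at 0.25- and 4-fold, and 6.12% of its calls were false. The simulation gave every gene the same spread and changed few genes, unlike the data, so these rates do not carry over to the members. PSMC6 was called in Leydig cells at a log2 fold change of 0.38 (edgeR adjusted p = 0.0406). PSMA8 was not called in macrophages at 1.39. A member not called in a class contrast may still differ. The immune share was planned with PSMB5 and PSMB6 in its base and uses PSMB7 to PSMB10 only.

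Genes planned to be given with values were PSMA7, PSMA8, PSMB7 to PSMB10, PSME1 to PSME4, PSMF1 and PSMC3IP. In each other role and outside list they were the genes with the highest and the lowest ratio. Not all of these are printed for every comparison. Further genes (PSMC5, PSMD2, PSMD4, PSMD6, PSMB3 and the like) were named after their values were seen. Alternatives were TMM and DESeq2 scaling, looser and stricter gates, other filters on cells and counts, cells thinned to 2000 UMIs, removal of the deepest cells, subtraction of free RNA and leaving out each library. Under Python 3.11.15, matplotlib 3.10.9 drew the figures, pandas 2.3.3 handled tables, and intervals came from SciPy 1.17.1 and NumPy 2.4.6. Sequences of the members were not used here.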

Additional observations from a re-analysis of the deposited data

Results flagged for a closer look

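PSMD14, PSME1 and PSME2 were called in opposite directions in different classes between 90 and 7 days. Each value compares 1 library per age, and the difference between classes was not tested.

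PSME1 had a log2 ratio of 1.66 in spermatogonia, against -0.68 in Sertoli cells, -1.12 in T or NK cells, -0.77 in contractile cells and -1.18 in stromal cells. The Sertoli call was lost with a looser gate (-0.48), without the deepest cells (-0.58) and with thinned cells (-0.53).

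PSME2 had a log2 ratio of 0.60 in spermatogonia, against -0.90 in Leydig cells, -1.20 in Sertoli cells, -1.85 in T or NK cells, -1.77 in contractile cells, -1.28 in endothelial cells, -1.48 in stromal cells and -1.78 in macrophages. The call in spermatogonia, at 47.7 CPM at 90 days and 31.4 CPM at 7 days, lies just past the 1.5-fold limit and was lost with thinned cells (0.36).

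PSMD14 had a log2 ratio of 0.80 in stromal cells (71.8 CPM at 90 days and 41.3 CPM at 7 days), against -0.84 in Leydig cells and -1.07 in spermatogonia (93.8 CPM at 90 days and 197.5 CPM at 7 days).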

How the results depend on the processing

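Of the counts and shares described within single libraries, 183 of 222 values under the alternatives stayed within the spread or within 1.5 times of the reported value, as did 63 of 88 counts from edgeR. Of values for single genes, 658 of 715 and 457 of 528 kept their direction and call. The cause of each change below was not tested. The 4 genes called under an alternative with the opposite sign to the uncalled reported value were PSMB9 in protamine spermatids against spermatogonia with the looser gate (1.63), PSMB8 in Leydig cells between 90 and 7 days with free RNA subtracted (2.25), PSMA7 in spermatogonia between 90 and 7 days without the deepest cells (0.61), and PSMF1 in spermatogonia against Sertoli cells with DESeq2 (0.34).

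With TMM factors, higher and lower members numbered 8 and 17 in protamine spermatids against spermatogonia; between 90 and 7 days they numbered 4 and 14 in Sertoli, 2 and 29 in Leydig and 3 and 14 in stromal cells, with 12 lower in endothelial cells and 1 higher in macrophages. Between 90 and 7 days in Leydig cells, 1 was higher with thinned cells and 3 with a minimum of 50 UMIs. In endothelial cells 1 was higher with the stricter cell filter (1000 genes, 10% mitochondrial UMIs), with the stricter gate or with free RNA subtracted, and in macrophages 1 with thinned cells. Without the deepest cells 11 were higher and 13 lower in spermatogonia.

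The PSMA8 share of the pair was 14.2% in 90-day spermatogonia (stricter gate), 22.7% in early and 48.0% in late spermatocytes (looser gate). In protamine spermatids it was 10.97% (stricter cell filter), 11.5% (stricter gate) and 24.8% (without the deepest cells). In spermatogonia at 7 days it was 11.08% (stricter gate), 28.4% (without the deepest cells) and 18.5% (thinned), and without the deepest cells it was 22.4% at 30 and 13.8% at 60 days. The immune share in macrophages was 91.4% at 7 and 85.6% at 30 days with free RNA subtracted, and 85.7% at 30 days when thinned. In Sertoli cells it was 19.5%, 22.3%, 14.8% and 6.47% from 7 to 90 days with free RNA subtracted, 16.6% at 60 and 6.98% at 90 days with the stricter gate, and 17.7% at 60 days when thinned.

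For the class contrasts against Sertoli cells, DESeq2 called 21 members higher and 7 lower in spermatogonia, 12 higher in endothelial cells, and 17 higher and 4 lower in macrophages. With no replicate block for the library, 5 were higher in spermatogonia, 13 higher in Leydig cells, 3 lower in endothelial cells, and 5 higher and 1 lower in macrophages. The looser gate gave 2 lower in Leydig cells, and the stricter gate 13 higher in spermatogonia. The stricter cell filter gave 15 higher and 6 lower in spermatogonia, 2 lower in Leydig cells and 3 lower in macrophages. Leaving out each library in turn gave 6 to 14 higher and 4 to 11 lower in spermatogonia, 8 to 28 and 1 to 2 in Leydig cells, 6 to 8 and 4 to 7 in endothelial cells, and 5 to 14 and 3 to 8 in macrophages.

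Depth limits PSMB8 and PSMB9 in germ, Leydig and Sertoli cells, PSMD5, and the 74 macrophages at 90 days, where ratios rest on few UMIs. With 1 library per age, age and library cannot be told apart.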

Other observations

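A table of gene names gave the symbols PSMA1, PSMA2 and PSMD9 to 3 features that carry only an ID in the files, and these were not counted among the members. Along spermatogonia, early spermatocytes, late spermatocytes, round spermatids and protamine spermatids of the 90-day library, the PSMA1 feature had 103, 90.8, 195, 129 and 37.0 CPM. The PSMA2 feature had 102, 215, 229, 206 and 58.4 CPM, and the PSMD9 feature 71.5, 99.4, 36.2, 49.8 and 26.4 CPM.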
